A study of Mus musculus with 8 samples.

Results

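The genes described here are 32 textbook transcriptional targets and control components of the p53 pathway, listed by name as textbook members of the pathway when earlier results of these data were already known, and all 32 were among the 19896 genes listed in both deposited tables. They are Trp53 itself with 3 genes that restrain it, 6 cell cycle genes, 13 cell death genes, 4 DNA repair genes, and 5 genes of stress signalling and metabolism. The cells were E14, a mouse embryonic stem cell line, grown in serum with LIF, and their polyadenylated RNA was sequenced. There were 4 groups of 2 libraries each: Cct5 KD carried a doxycycline-inducible short hairpin against Cct5, Cct7 KD carried one against Cct7, and Cct5 KD Ctr and Cct7 KD Ctr carried the empty vector. All 4 groups were selected in puromycin (0.5 µg/ml, 14 days), positive clones were picked, and all 4, the controls included, then received doxycycline (2 µg/ml, 2 days). Cct5 and Cct7 encode subunits of the chaperonin CCT, the ring that folds actin, tubulin and many other proteins. How many clones each group holds, and whether the 2 libraries of a group came from separate cultures, was not stated, so every p-value measures only the spread between libraries, which may be technical.

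The protein p53, the product of Trp53, is a transcription factor that is normally kept scarce because Mdm2 marks it for degradation and Mdm4 blocks its activity. When DNA damage or other stress relieves this restraint, p53 binds elements in its target genes and raises genes that halt the cell cycle, repair DNA or cause cell death, and also Mdm2, which closes a feedback loop. Embryonic stem cells hold abundant p53, divide rapidly and have a short G1 phase. The activity of p53 is set largely at the protein level, which RNA sequencing does not measure.

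The p53 response element is a pair of decamers, each 10 bases long. Windows of 250 bases before the RefSeq start (GRCm38.p6) were available for 24 of the 32 genes and were searched for the p53 decamer consensus, which reads the same on both strands. A match was found for 11 of the 24 genes (45.8%), against 8.20% of the 27025 genes with a window. Among genes with 1 window only, 7 of 17 members (41.2%) and 7.18% of all such genes had a match. The members' windows were richer in G and C, with a median of 61.4% against 52.4%. A pair of exact matches with at most 13 bases between them was found in Cdkn1a alone of the 24 genes, and in 0.0666% of all genes. The matches of that Cdkn1a pair lie 12 bases apart. The 10 bases directly after its second match differ from the consensus in 1 base, so they were not counted and stay in lower case. A match is a description of the letters and not a binding site. The stretches below, given 5′ to 3′ on the gene's strand with the decamers in capitals, belong to the genes whose changes the results turn on, and the last shows a matching gene, Bax, that changed little.
Cdkn1a (chr17:29090881-29090962, plus strand): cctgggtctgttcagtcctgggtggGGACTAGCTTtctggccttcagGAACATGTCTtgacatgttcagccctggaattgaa
Trp53 (chr11:69580259-69580318, plus strand): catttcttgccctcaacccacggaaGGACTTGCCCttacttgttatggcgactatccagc
Mdm2 (chr10:117710910-117710969, minus strand): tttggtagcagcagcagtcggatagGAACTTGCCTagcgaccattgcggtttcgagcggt
Ccng1 (chr11:40755437-40755496, minus strand): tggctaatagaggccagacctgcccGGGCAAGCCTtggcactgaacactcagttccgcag
Ppm1d (chr11:85311097-85311156, plus strand): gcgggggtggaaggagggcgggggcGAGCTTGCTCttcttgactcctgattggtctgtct
Bax (chr7:45467065-45467124, minus strand): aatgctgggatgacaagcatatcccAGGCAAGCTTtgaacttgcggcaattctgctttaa

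The authors deposited FPKM, fragments per kilobase of transcript and per sequencing depth, which can be compared between genes because it is divided by length. From the step between low values, the 4 control and 2 Cct7 KD libraries held 18.8 to 54.6 M fragments, so that 1 fragment on a 1 kb transcript is worth 0.0183 to 0.0531 FPKM. The coefficient of variation between the 2 libraries of a group had a median over the members of 1.93% to 3.15%. Counting noise was checked on genes with 1 annotated transcript and 20 to 2000 fragments, not on the members. There the median chi-square between 2 libraries was 0.503 to 0.584 in the controls and Cct7 KD, against 0.455 from counting alone. The mean reached 2.92 in Cct7 KD Ctr. The targeted genes were lower in the deposited columns of their own knockdown. Cct7 read 269 and 280 FPKM in the Cct7 KD Ctr libraries and 14.4 and 17.8 in Cct7 KD, and Cct5 read 368 and 367 in Cct5 KD Ctr and 70.8 and 73.4 in Cct5 KD. Cct5 was also lower in Cct7 KD, at 280 and 271 against 356 and 360 in its control.

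The deposited Cct5 KD values are not independent of Cct7 KD. In each gene the value of a Cct5 KD library was 1.125 times the value of the Cct7 KD library with the same number plus a remainder of 0 or more, except in 15 of 19896 genes. None of the 32 genes is among those 15, but Cct5 is: the multiple would give it 315 and 305 FPKM, above the deposited 70.8 and 73.4. Cct5 therefore has no remainder, and the label of the remainder cannot be checked on the targeted gene. For Cct7 the unscaled remainder was 281 and 279 FPKM, against 278 and 277 in Cct5 KD Ctr, so the scaling described below puts it above that control. The remainder was exactly 0 in 449 and 427 genes. The multiple made up 71.3% and the remainder 28.7% of the summed FPKM. Over the genes in both tables that sum was 745380 and 743612 in the deposited Cct5 KD columns, against 495289 and 496418 in Cct5 KD Ctr. The remainder stepped in whole fragments in 99.0% and 99.1% of low values, whereas the deposited Cct5 KD columns did so in 90.05% and 39.0%. Among the members the multiple made up from 48.6% (Dcxr) to 88.2% (Ppm1d) of the Cct5 KD value, with a median of 72.0%. For this reason Cct7 KD was compared with the remainder, and the remainder, which is small because it is only a part of each value, was brought to the level of the controls by median-of-ratios scaling (factors 0.383 and 0.387). What produced this structure was not tested, and whether the remainder alone stands for Cct5 KD cells cannot be told apart from other origins with these files.

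**Figure D1:**
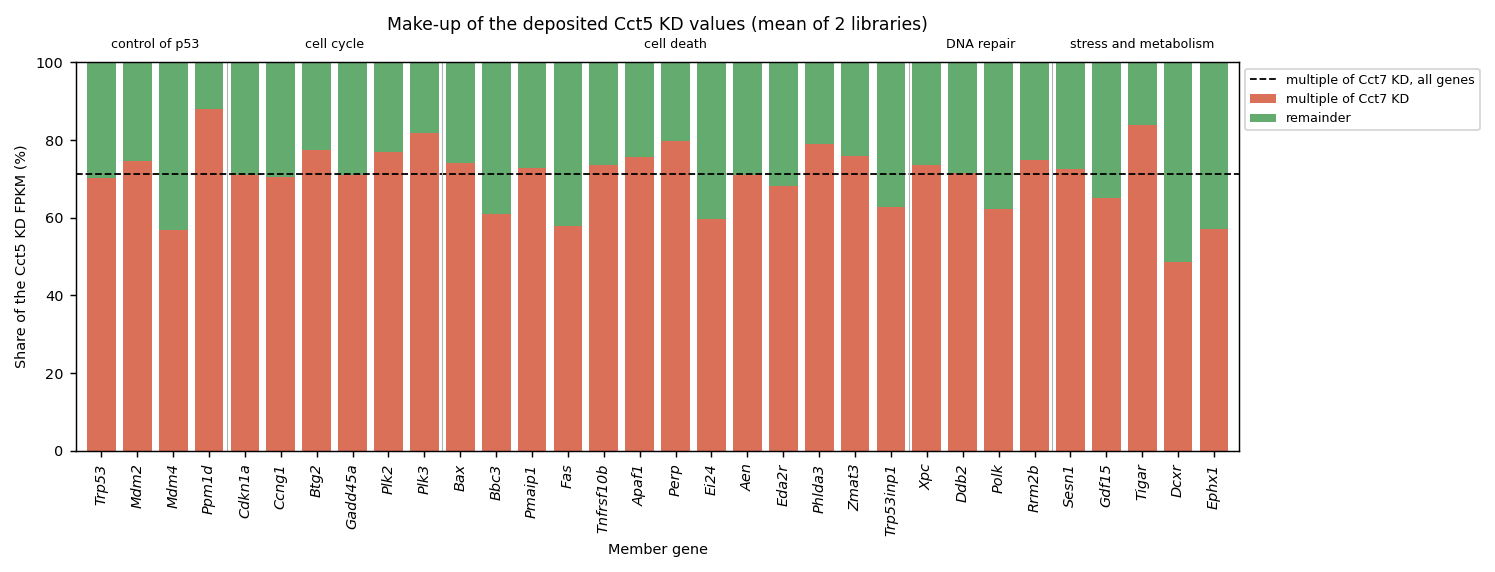
Share of the deposited Cct5 KD FPKM of each of the 32 genes, in percent (vertical axis, mean of 2 libraries), that is the multiple of the Cct7 KD value (red) and that is the remainder (green), with the genes ordered by role. The dashed line is the multiple's share over all genes, 71.3%, and the multiple takes the least in Dcxr and the most in Ppm1d.

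In the 4 control libraries the most abundant member was Mdm4 at 247 ± 24.6 FPKM (SD, n = 4), followed by Ccng1 at 127 ± 2.92. Cdkn1a at 86.8 ± 4.86, Trp53inp1 at 82.7 ± 4.94, Ei24 at 77.8 ± 3.88 and Trp53 at 72.7 ± 6.70 came next, and neighbours among these 4 differed by less than the spread between libraries. Mdm2 stood at 62.0 ± 1.40. At the bottom were Rrm2b at 4.31 ± 0.205, Gdf15 at 2.05 ± 0.146 and Fas, a death receptor, at 0.731 ± 0.150 FPKM. The 2 control groups gave no call: limma called 0 of 12762 genes between them, with an unadjusted p under 0.05 in 2296 genes (18%) and in 15 of the 31 members tested. The members' log2 differences, Cct5 KD Ctr minus Cct7 KD Ctr, ran from -0.24 to 0.17. They were positive in 6 of the 31, with a median of -0.11 against -0.013 over all genes, so most members read lower in Cct5 KD Ctr.

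Most of the 32 genes were higher in Cct7 KD than in Cct7 KD Ctr, and the strongest rises were in Pmaip1, Plk3, Perp, Rrm2b, Trp53 and Ddb2, while Mdm4, Bbc3 and Ephx1 fell the most. With limma on log2(FPKM + 1) and an adjusted p threshold of 0.05, 20 members were called higher, 7 lower and 5 neither. Among all 13588 genes tested, 49.3% were called higher and 32% lower, so calls were common everywhere. The members' median log2 change was 0.40 against 0.15 over all genes. A change of at least 2-fold upward was reached by 6 members (13.5% of all genes did so) and downward by 3 (6.6% of all genes). Median-of-ratios scaling shifted the median of all genes to -0.072 and that of the members to 0.17, and it then called 16 members higher and 12 lower, against 37% and 44.4% of all genes. With a common FPKM total 23 were higher and 6 lower, against 52.6% and 29.2%. Values below are log2 differences in FPKM + 1 as deposited for Cct7 KD, with the scaled value where it alters the call or the sign, and after scaling for the remainder.

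**Figure D2:**
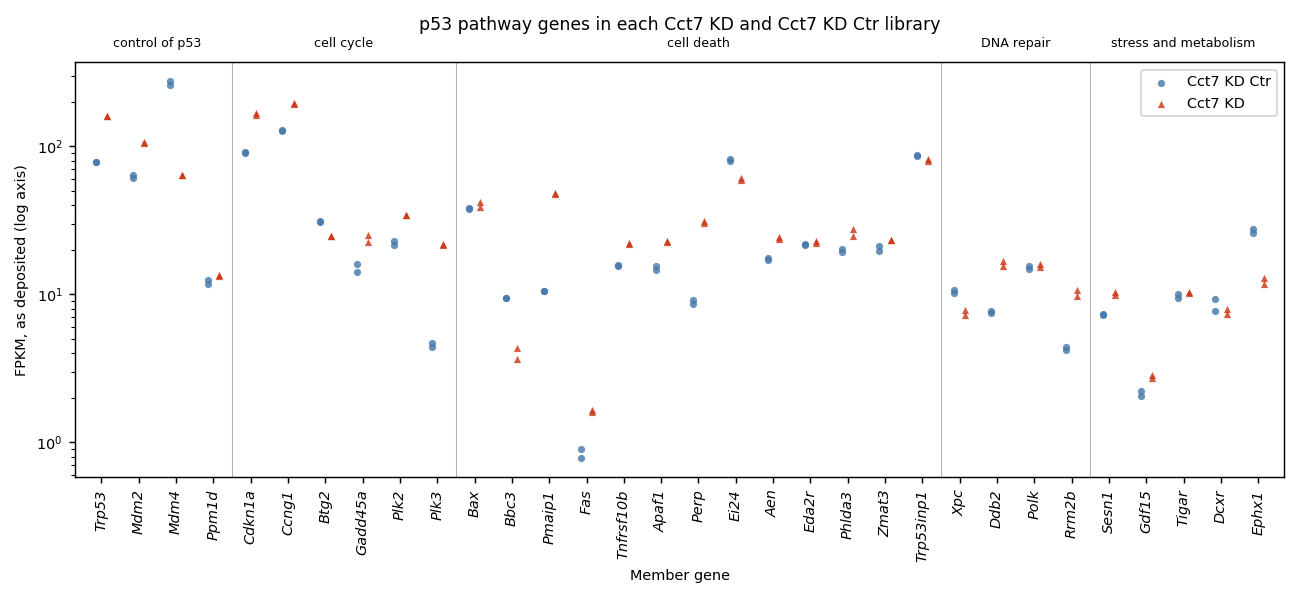
FPKM as deposited (vertical log axis) of each of the 32 genes in the 2 Cct7 KD Ctr libraries (circles) and the 2 Cct7 KD libraries (triangles), by role. Pmaip1, Plk3 and Perp lie well above their controls, and Mdm4, at 64.0 in both knockdown libraries, lies below 276 and 260.

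In the remainder 25 members were called higher than in Cct5 KD Ctr, 5 lower and 2 neither, with a median log2 change of 0.68 against -0.010 over all genes. Among the 12993 genes tested, 41.1% were called higher and 42.1% lower. Rises of at least 2-fold were seen in 9 members (9.37% of all genes) and a fall of that size in 1, Ppm1d (10.3% of all genes). Scaling to a common FPKM total instead gave 22 higher and 6 lower, against 33.7% and 49.9% of all genes, with medians of 0.53 and -0.16. The 2 comparisons use different control libraries. Of the 32 genes, 19 were called higher in both, 3 lower in both (Mdm4, Btg2 and Xpc), and 4 in opposite directions: Ppm1d, which was higher only in Cct7 KD as deposited, and Ei24, Trp53inp1 and Ephx1, which were lower in Cct7 KD. With median-of-ratios scaling in Cct7 KD as well, 16 were higher in both and 4 lower in both. A further 6 were then lower in Cct7 KD and higher in the remainder: Ei24, Eda2r, Trp53inp1, Polk, Dcxr and Ephx1. Most genes tested were called in each comparison, and the share of all genes with such joint calls was not computed. These joint counts are therefore a description only. The deposited Cct5 KD values, set against Cct5 KD Ctr, had 29 members higher and 1, Mdm4, lower, where 78% and 11.3% of all 14179 genes were so called, and changes of at least 2-fold in 18 upward and 0 downward (31.2% and 2.17% of all genes). After median-of-ratios scaling these counts were 22 and 9, against 37.6% and 44.9% of all genes, and with a common FPKM total 23 and 7, against 50.6% and 32.5%.

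**Figure D3:**
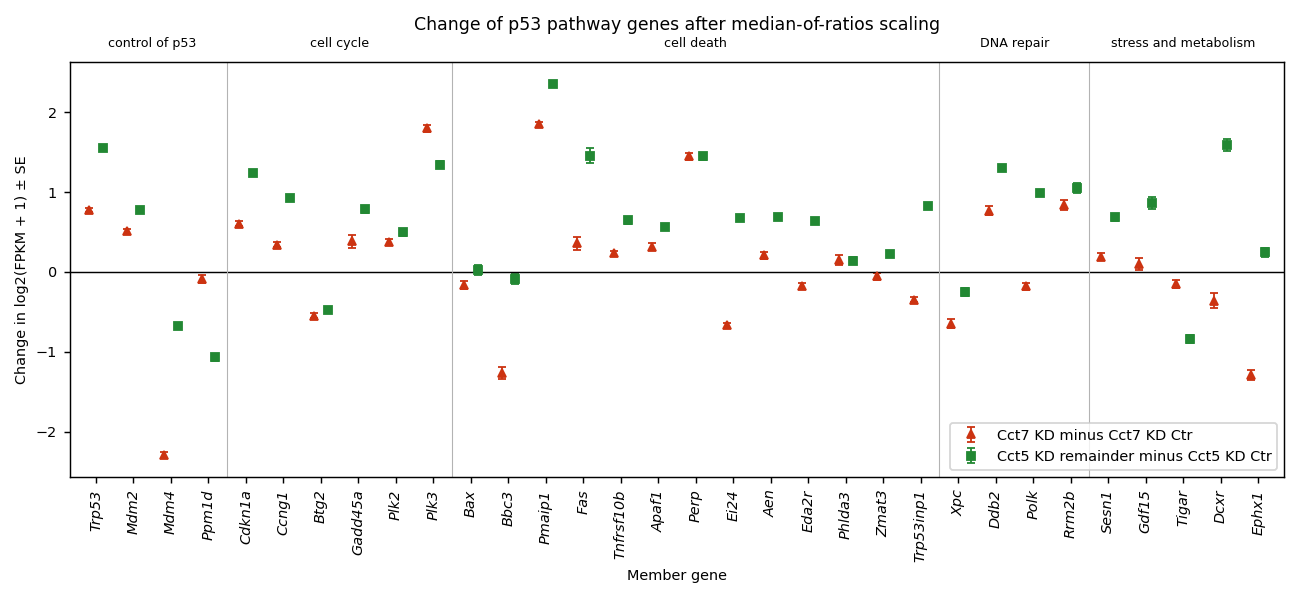
Change in log2(FPKM + 1) with its standard error after median-of-ratios scaling (vertical axis) for each of the 32 genes, for Cct7 KD minus Cct7 KD Ctr (triangles) and for the Cct5 KD remainder minus Cct5 KD Ctr (squares). Pmaip1, Perp, Plk3 and Trp53 are above 0 in both, and Mdm4 is below 0 in both. Dcxr, Ephx1, Ei24, Trp53inp1, Eda2r and Polk lie on opposite sides and were called in both comparisons.

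Of the genes that control p53, Trp53 and Mdm2 rose and Mdm4 fell in both comparisons. Trp53 (ENSMUSG00000059552, chr11:69580359-69591873) read 79.0 and 77.9 FPKM in Cct7 KD Ctr against 160 and 160 in Cct7 KD. Both knockdown libraries stood at 2.04 times the control mean, a log2 change of 1.02 (SE 0.024; limma adjusted p = 2.9e-06). The remainder gave 192 and 203 scaled FPKM against 67.3 and 66.5, a log2 change of 1.55 (SE 0.032). Mdm2 (chr10:117688875-117710758), the ligase that marks p53 for degradation and a target of p53 itself, read 64.0 and 61.5 in Cct7 KD Ctr against 106 and 108 in Cct7 KD. The remainder held 107 and 104 against 61.2 and 61.1. The log2 changes of Mdm2 were 0.76 and 0.78, and no knockdown library overlapped a control. The share of all genes with such separate libraries was not computed, so here and below separation is a description only. Mdm4 (chr1:132959484-133030561), the partner of Mdm2 that blocks p53 activity, read 276 and 260 in Cct7 KD Ctr against 64.0 and 64.0 in Cct7 KD, a 4.18-fold fall (log2 change -2.05, SE 0.035; limma adjusted p = 1.4e-06). In the remainder the fall was shallower, at 142 and 140 against 228 and 226 (log2 change -0.68). Ppm1d, a phosphatase that switches off p53 and the damage kinases, measured 12.6 and 11.7 in the Cct7 controls and 13.4 and 13.6 with the knockdown. That small rise of 0.14 was called as deposited (limma adjusted p = 0.037) but became -0.092 with scaling and was not called. In the remainder Ppm1d fell, at 5.41 and 5.31 against 12.5 and 12.2 (log2 change -1.07).

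The cell cycle genes rose in both comparisons, apart from Btg2: 5 of 6 were called higher and 1 lower in each, where 49.3% and 41.1% of all genes were called higher. Cdkn1a (chr17:29090976-29100727), which encodes the cyclin-dependent kinase inhibitor p21, read 92.2 and 89.6 FPKM in Cct7 KD Ctr against 162 and 168 in Cct7 KD. The remainder held 195 and 197 against 82.7 and 82.7. These are log2 changes of 0.85 (SE 0.031) and 1.24 (SE 0.022), with the groups apart in both. An antisense transcript, AC167363.2, overlaps 7.68% of its exonic bases, and the strand setting of the counting was not stated. Plk3, a polo-like kinase of the stress response, had the largest rise of the 6 in Cct7 KD, from 4.68 and 4.42 to 21.7 and 22.0. The remainder held 14.2 and 14.0 against 5.02 and 4.87. Its log2 changes were 2.04 and 1.34.

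Ccng1, cyclin G1, which links a phosphatase to Mdm2, measured 128 and 130 in the Cct7 controls and 197 and 192 with the knockdown (log2 change 0.59). It was 243 and 234 in the remainder against 128 and 123 (log2 change 0.92). Gadd45a, a growth arrest gene of the damage response, measured 16.02 and 14.1 in the Cct7 controls against 25.03 and 22.4 in the knockdown, a change of 0.63 with the widest error of this group (SE 0.078), and an antisense gene covers 19.1% of its exonic bases. In the remainder it was 29.2 and 27.6 against 15.8 and 16.3. Plk2, another polo-like kinase, rose from 22.9 and 21.5 to 34.6 and 34.4 in Cct7 KD and from 22.0 and 20.6 to 30.2 and 30.6 in the remainder, changes of 0.61 and 0.50. Btg2, an antiproliferative gene that acts with the mRNA deadenylation machinery, went the other way. It fell from 31.0 and 31.1 to 24.9 and 24.9 in Cct7 KD (log2 change -0.31) and from 30.3 and 29.7 to 20.9 and 21.8 in the remainder (-0.47).

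The 13 cell death genes did not move as 1 group. In Cct7 KD 8 were called higher, 3 lower (Bbc3, Ei24 and Trp53inp1) and 2 neither (Bax and Eda2r), and in the remainder 11 were called higher, 0 lower and 2 neither (Bax and Bbc3). Over all genes 49.3% were called higher and 32% lower in Cct7 KD, and 41.1% and 42.1% in the remainder. With median-of-ratios scaling 6 of the 13 were higher and 5 lower in Cct7 KD, and with a common FPKM total 9 were higher and 1 lower in the remainder. Of the pore former and its activators, Pmaip1, the BH3-only protein Noxa, had the largest rise of all 32 genes in both comparisons. It read 10.6 and 10.5 FPKM in Cct7 KD Ctr against 48.8 and 47.9 in Cct7 KD, which is 4.58-fold (log2 change 2.09, SE 0.032; limma adjusted p = 1.2e-06). The remainder held 51.8 and 54.1 against 9.43 and 9.74, a log2 change of 2.35. Bbc3, the BH3-only protein Puma, instead fell in Cct7 KD, from 9.49 and 9.46 to 4.35 and 3.65 (log2 change -1.07, SE 0.080). In the remainder Bbc3 was 7.57 and 7.39 against 7.56 and 8.52, so that the ranges overlapped and the change of -0.091 was not called, although it was -0.24 and called lower with a common FPKM total. Bax, which forms pores in the mitochondrial outer membrane, was 37.9 and 38.3 in Cct7 KD Ctr against 42.2 and 38.7 in Cct7 KD. Its log2 change of 0.083 was not called and became -0.16, a call, with scaling, while in the remainder it was 42.7 and 39.6 against 38.6 and 42.4 (0.023), which overlapped and turned to -0.14, not called, with a common FPKM total. A protein-coding gene on the same strand, Gm45808, overlaps 12.2% of the exonic bases of Bax. Apaf1, the core of the apoptosome, rose from 15.5 and 14.7 to 22.9 and 22.5 in Cct7 KD and from 14.2 and 14.1 to 20.97 and 21.9 in the remainder, by 0.56 and 0.57 on the log2 scale.

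The death receptors Fas and Tnfrsf10b were higher in both comparisons, Fas at a low level. Fas read 0.785 and 0.898 FPKM in Cct7 KD Ctr against 1.59 and 1.64 in Cct7 KD, and 3.68 and 3.20 in the remainder against 0.543 and 0.6997. The log2(FPKM + 1) changes of 0.51 and 1.45 understate the fold at this level, which was 1.92 and 5.54 between the means. Tnfrsf10b, the receptor of the death ligand TRAIL, rose from 15.6 and 15.7 to 22.3 and 21.9 in Cct7 KD and from 14.7 and 14.2 to 23.9 and 22.5 in the remainder. Eda2r, a receptor of the same family, was 21.4 and 21.8 in Cct7 KD Ctr against 22.3 and 23.0 in Cct7 KD, a change of 0.065 that was not called and turned to -0.18, called lower, with scaling. In the remainder Eda2r rose from 19.2 and 19.5 to 30.6 and 30.9.

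Perp, a membrane protein of desmosomes that promotes apoptosis, rose from 9.12 and 8.59 to 30.3 and 31.3 in Cct7 KD, by 3.48-fold. In the remainder it held 22.7 and 22.8 against 8.01 and 7.41, and after scaling both changes were 1.45. Aen, a p53-induced exonuclease, rose from 17.0 and 17.7 to 24.6 and 23.5 and, in the remainder, from 17.0 and 17.7 to 28.2 and 28.8. Phlda3, an inhibitor of the survival kinase Akt, was 19.2 and 20.3 in Cct7 KD Ctr against 27.5 and 24.8 in Cct7 KD. Its change of 0.39 fell to 0.14 with scaling, which was not called. Phlda3 was 21.2 and 19.5 in the remainder against 18.2 and 18.6, a change of 0.14 that was -0.016 with a common FPKM total. Zmat3, an RNA-binding regulator of splicing, was 21.2 and 19.6 in Cct7 KD Ctr against 23.4 and 23.3 in Cct7 KD, a change of 0.19 that became -0.053 with scaling. In the remainder it was 22.0 and 21.4 against 18.3 and 18.5 (0.23), a call that a common FPKM total ended (0.072).

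Ei24 and Trp53inp1 moved in opposite directions in the 2 comparisons. Ei24, a protein of the endoplasmic reticulum, fell from 80.1 and 82.1 FPKM to 59.2 and 61.5 in Cct7 KD and rose from 74.4 and 74.7 to 119 and 119 in the remainder, changes of -0.42 and 0.67. Trp53inp1, a stress-induced cofactor of p53, read 87.3 and 86.5 in Cct7 KD Ctr against 82.0 and 79.9 in Cct7 KD. Its change of -0.10 was not called with a common FPKM total (-0.039). In the remainder Trp53inp1 rose from 79.9 and 77.2 to 140 and 141 (log2 change 0.83).

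Of the DNA repair genes, Ddb2 and Rrm2b rose and Xpc fell in both comparisons, and Polk rose in the remainder. Ddb2, which recognises ultraviolet lesions, went from 7.67 and 7.44 FPKM to 16.7 and 15.6 in Cct7 KD and from 6.94 and 7.10 to 19.0 and 18.6 in the remainder (log2 changes 1.00 and 1.30). Its antisense neighbour Acp2 shares 23.8% of its exonic bases and was itself at 2.42 and 2.27 FPKM in Cct7 KD Ctr against 6.50 and 6.88 in Cct7 KD, so the value of Ddb2 is uncertain if counting ignored strand. Rrm2b, the p53-inducible subunit of ribonucleotide reductase, went from 4.43 and 4.21 to 10.6 and 9.74 and, in the remainder, from 4.53 and 4.08 to 9.82 and 10.1, changes of 1.07 and 1.05. An antisense gene, Gm49085, overlaps 8.04% of its exonic bases. Gm49085 was at 0.047 and 0.067 FPKM in Cct7 KD Ctr against 0.109 and 0.092 in Cct7 KD. No library of Ddb2 or Rrm2b overlapped its control, and the share of all genes for which this holds was not computed. Xpc, the damage sensor of nucleotide excision repair, fell from 10.3 and 10.7 to 7.28 and 7.82 in Cct7 KD and from 9.27 and 9.97 to 7.89 and 7.90 in the remainder. Polk, a translesion polymerase, was 15.5 and 14.8 in Cct7 KD Ctr against 15.4 and 16.1 in Cct7 KD, which overlapped, and its change of 0.053 became -0.18, called lower, with scaling. In the remainder Polk rose from 13.4 and 13.6 to 27.9 and 27.8 (log2 change 0.99).

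Among the genes of stress signalling and metabolism, Sesn1 and Gdf15 were called higher in both comparisons, and the 3 metabolic genes differed. Sesn1, a sestrin that restrains mTORC1, went from 7.27 and 7.42 FPKM to 9.87 and 10.5 in Cct7 KD and from 6.65 and 6.62 to 11.4 and 11.1 in the remainder. Gdf15, a secreted stress cytokine, went from 2.04 and 2.21 to 2.86 and 2.72, a change of 0.28 that was 0.10 and not called with scaling, and in the remainder from 1.85 and 2.08 to 4.52 and 4.25 (0.86). Both genes stood apart from their controls. Ephx1, an epoxide hydrolase that detoxifies reactive compounds, fell from 26.0 and 27.6 to 12.9 and 11.7 in Cct7 KD (log2 change -1.06, SE 0.057). In the remainder it was 28.5 and 25.7 against 22.6 and 22.9, a rise of 0.24 that a common FPKM total reduced to 0.084, not called. Dcxr, a carbonyl and xylulose reductase, was 7.77 and 9.38 in Cct7 KD Ctr against 7.93 and 7.36 in Cct7 KD, which overlapped, and was called lower with scaling (-0.36). In the remainder Dcxr rose from 6.70 and 7.66 to 24.6 and 22.5, a log2 change of 1.59. Tigar, a phosphatase that slows glycolysis, was 9.44 and 9.998 in the Cct7 controls and 10.4 and 10.1 with the knockdown, a change of 0.074 that became -0.15 with scaling. In the remainder Tigar fell from 11.4 and 10.8 to 5.75 and 5.77 (log2 change -0.84).

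The difference between the 2 changes was tested in 1 limma fit over the 4 control libraries, Cct7 KD and the remainder, all scaled by median of ratios. The change was larger in the remainder for 23 members, smaller for 3 and not different by this test for 6, where 38.5% and 35.4% of all 13198 genes were so called. A difference of at least 2-fold was reached by 8 members upward and 0 downward (9.19% and 7.27% of all genes). With a common FPKM total in place of that scaling, 13 members were larger and 12 smaller, against 19% and 59% of all genes. Under both scalings the remainder's change was larger for 13 members, against 19.2% of all genes: Trp53, Mdm4, Cdkn1a, Ccng1, Bbc3, Fas, Ei24, Eda2r, Trp53inp1, Polk, Gdf15, Dcxr and Ephx1. It was smaller under both for 3, against 35.4% of all genes: Ppm1d, Plk3 and Tigar. Larger and smaller are meant with the sign of the change, not as its size. For Mdm4, which fell in both comparisons, a larger value means a shallower fall, by 1.61 on the log2 scale. Bbc3 likewise fell less in the remainder than in Cct7 KD. For Ppm1d and Tigar a smaller value means a deeper fall in the remainder. Pmaip1 and Perp, among the strongest rises, differed by 0.49 (SE 0.047) and -0.012 (SE 0.065).

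Promoter matches were set beside the changes as a description. The 11 genes with a decamer in the window, shown in part above, had 8 higher and 1 lower in Cct7 KD with a median of 0.45, and 9 higher and 1 lower in the remainder with a median of 0.78. With median-of-ratios scaling the Cct7 KD counts were 7 and 3, with a median of 0.21. The 13 genes with a window and no match had 6 higher and 4 lower (median 0.074) in Cct7 KD and 9 higher and 3 lower (median 0.50) in the remainder. With that scaling they had 4 higher and 7 lower in Cct7 KD, and the median turned to -0.15. Over all genes the medians were 0.15 in Cct7 KD, -0.072 with scaling and -0.010 in the remainder, and the shares called are those given above. The 8 genes with no window, among them Pmaip1 and Perp, had medians of 0.74 and 0.94. The gene with the pair of exact matches, Cdkn1a, was higher in both, Ppm1d with 1 decamer fell in the remainder, and Bax with 1 decamer was called in neither as reported.

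Other genes of the pathway were described by the same counts, to be read against the shares of all genes: 49.3% higher and 32% lower in Cct7 KD, 37% and 44.4% with median-of-ratios scaling, and 41.1% and 42.1% in the remainder. Of 52 further p53 targets, 47 were tested in Cct7 KD, with 26 higher, 10 lower and 11 not called (median 0.24), and with scaling 16 of 46 were higher and 15 lower (median 0.0098). In the remainder 22 of 45 were higher and 13 lower (median 0.15), and with a common FPKM total 19 of 44 were higher and 19 lower (median 0.0042). Ikbip, Ddit4 and Fbxw7 were among those with the smallest p in Cct7 KD. Ddit4, an inhibitor of mTORC1, was 421 ± 9.66 FPKM (SD, n = 2) in Cct7 KD against 144 ± 5.76, and 0.35 higher in the remainder. Ikbip rose by 1.53 in Cct7 KD and 1.65 in the remainder. Fbxw7, a ubiquitin ligase subunit, rose by 1.23 in Cct7 KD and gave -0.049, not called, in the remainder.

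Of 37 genes that regulate p53, 35 were tested in Cct7 KD, with 7 higher, 23 lower and 5 not called (median -0.22), and in the remainder 8 of 34 were higher and 24 lower (median -0.41), where 32% and 42.1% of all genes were called lower. Usp10, a deubiquitinase of p53, was 26.0 ± 0.0426 FPKM in Cct7 KD against 74.6 ± 0.0900, and fell by 2.18 on the log2 scale in the remainder. Trim28, a corepressor that acts with Mdm2, fell by 1.15 in Cct7 KD and by 1.96 in the remainder. Aurka, a mitotic kinase, and Gnl3, a nucleolar protein that binds Mdm2, also fell in both, by 1.00 and 0.94 in Cct7 KD and by 0.80 and 0.76 in the remainder.

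The 25 genes repressed through p21 and the DREAM complex, which serve DNA replication and mitosis, had 4 higher and 20 lower in Cct7 KD (median -0.49) and 8 higher and 16 lower in the remainder (median -0.23), against the same 32% and 42.1% of all genes lower. Mybl2, a transcription factor of the cell cycle, fell from 176 ± 2.87 to 34.4 ± 0.0972 FPKM in Cct7 KD (log2 change -2.33) and by 2.54 in the remainder. Top2a, a topoisomerase of dividing cells, changed by -1.07 and -0.56, and Nek2, a centrosome kinase, by -1.20 and -1.41. Of 14 genes of the integrated stress response, which shares some targets with p53, 11 were higher and 3 lower in Cct7 KD (median 1.25), and 9 of 12 tested were higher and 3 lower in the remainder (median 0.74), against 49.3% and 41.1% of all genes higher. Ddit3, the transcription factor CHOP, read 34.0 ± 0.0955 against 4.06 ± 0.0852 FPKM in Cct7 KD, and it rose by 4.44 in the remainder. Atf4, the factor that drives this response, rose by 1.01 in Cct7 KD and 0.62 in the remainder. Chac1 and Asns rose by 2.30 and 0.95 in Cct7 KD and by 0.86 and 0.25 in the remainder.

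**Figure D4:**
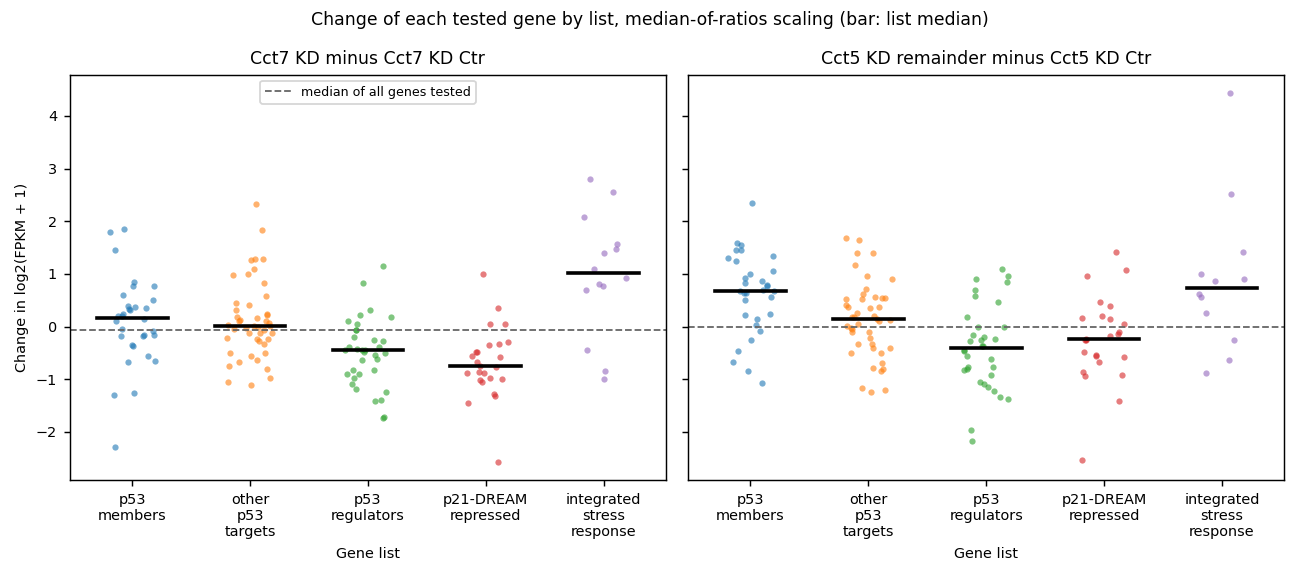
Change in log2(FPKM + 1) of each tested gene (points) after median-of-ratios scaling (vertical axis), by gene list, for Cct7 KD minus Cct7 KD Ctr (left) and the Cct5 KD remainder minus Cct5 KD Ctr (right). Bars are list medians and the dashed line is the median of all genes tested. The members' median is 0.17 on the left and 0.68 on the right, and of the 5 lists plotted the integrated stress response has the highest median in both panels, 1.01 and 0.74.

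Markers of cell state moved with the groups, and not alike in the 2 comparisons. Sums are in FPKM as deposited for the controls, Cct7 KD and Cct5 KD, and scaled for the remainder, and counts are of markers called among those tested. The deposited Cct5 KD columns have a larger FPKM total over all genes than the controls, so their marker sums are not on the controls' scale. Counts for Cct7 KD use values as deposited unless scaling is named, and those for the remainder use scaled values. Over all genes 49.3% were called higher and 32% lower in Cct7 KD, and 41.1% and 42.1% in the remainder. All 12 markers of embryonic stem cells averaged at least 1 FPKM in the controls, where they summed to 4921 to 5123, against 1015 to 1023 in Cct7 KD, 2192 to 2195 in the deposited Cct5 KD and 2697 to 2741 in the remainder. Of these 12, 12 were lower in Cct7 KD and 11 in the remainder. Markers of the 2-cell-like state (9 of 10 in both tables) summed to 21.8 to 22.6 in the controls, 104 to 109 in Cct7 KD and 119 to 124 in the deposited Cct5 KD, but to 3.92 to 4.54 in the remainder. They were higher in 7 of 8 in Cct7 KD (median log2 change 1.84) and lower in 5 of 5 in the remainder (median -1.75). Trophoblast markers (9 of 10) summed to 38.0 to 43.3 in the controls, 254 to 262 in Cct7 KD and 297 to 307 in Cct5 KD, and to 29.6 to 30.5 in the remainder. Of 6 tested in Cct7 KD, 4 were higher and 2 lower (median 1.13), and with median-of-ratios scaling 3 were higher and 2 lower. In the remainder 1 of 4 tested was higher and 3 lower (median -0.41). Primitive endoderm markers (10 of 10) summed to 228 to 235, 306 to 312 and 433 to 440, and to 229 to 231 in the remainder. Of 6 tested in Cct7 KD, 5 were higher and 1 lower (median 0.36), and with median-of-ratios scaling 2 of 5 were higher and 1 lower. In the remainder 1 of 5 tested was higher and 3 lower (median -0.27). For these 3 lists the scaled remainder did not exceed the range of the controls. Fibroblast feeder markers (6 of 10) summed to 11.7 to 12.7, 12.8 to 13.2 and 18.6 to 19.2, and to 11.1 in both remainder columns. None of these markers was at 0 in the controls. In such bulk samples fewer cells of a type and less RNA per cell cannot be told apart, and the part of these shifts in the changes of the p53 pathway genes was not tested.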

How the data were processed

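The authors deposited gene FPKM values in 2 tables, each pairing 1 knockdown and its controls, from strand-specific poly(A) libraries read as 150 bp pairs. HTSeq and mm10 are named in the submitters' processing notes. Their versions, the aligner, the annotation and the strand setting were not stated. The tables held 21055 and 20909 entries, of which 8 and 6 IDs listed more than once were left out. Symbols came from GENCODE for the same assembly. The remainder was computed by subtracting 1.125 times each Cct7 KD library from the Cct5 KD library with its number. Fits used limma 3.58.1 in R 4.3.3 on log2(FPKM + 1), over all genes averaging 1 FPKM or more. They used Benjamini-Hochberg adjustment and a threshold of 0.05. The fits between 2 groups were tested on simulated data, without the scaling step. The fit of the difference between the 2 changes was not simulated. Depth was read from the step between low FPKM values and accepted where at least 95% of them were whole fragments within 0.05. The replicate numbers are not stated to pair libraries. All 32 genes are named, and of other lists the 4 with the smallest p in Cct7 KD, of which 2 genes are not reported here. The members and the gene lists were chosen with earlier results of these data known. Promoter sequences are RefSeq's (GRCm38.p6).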

Additional observations from a re-analysis of the deposited data

Results flagged for a closer look

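For 16 of the 32 genes the change in the Cct5 KD remainder differed from the change in Cct7 KD by a test of the difference itself (limma over all genes, adjusted p under 0.05) under both median-of-ratios and common-total scaling. The change, taken with its sign, was larger in the remainder for 13 of them and smaller for 3. Of all 13188 genes, 19.2% and 35.4% were so called under both scalings. A positive difference can thus be a shallower fall, as for Mdm4 and Bbc3, and a negative one a deeper fall, as for Ppm1d and Tigar. The values are the remainder's log2 change minus that of Cct7 KD with median-of-ratios scaling.

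Of the genes that control p53, the difference was 0.77 for Trp53, 1.61 for Mdm4 and -0.99 for Ppm1d. Among cell cycle genes it was 0.62 for Cdkn1a, 0.57 for Ccng1 and -0.46 for Plk3. Among cell death genes it was 1.17 for Bbc3, 1.10 for Fas, 1.33 for Ei24, 0.81 for Eda2r and 1.17 for Trp53inp1. Among repair, stress and metabolism genes it was 1.16 for Polk, 0.76 for Gdf15, 1.94 for Dcxr, 1.52 for Ephx1 and -0.70 for Tigar. The 16 were picked for keeping their call under both scalings, so that is no sign of stability. The remainder is a computed part of the deposited Cct5 KD values, and what produced it was not tested.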

How the results depend on the processing

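With median-of-ratios scaling 12 members were called lower in Cct7 KD and 9 in the deposited Cct5 KD, and with a common FPKM total, an alternative chosen after seeing the data for these 2 comparisons, 23 were higher and 6 lower in Cct7 KD and 23 and 7 in Cct5 KD. With the common total the difference test called 13 members larger and 12 smaller in the remainder. Asking for a fold of at least 2 left 6 higher and 3 lower in Cct7 KD, 18 higher and 0 lower in Cct5 KD, 9 higher and 1 lower in the remainder, and 8 larger and 0 smaller differences. Leaving out 1 library gave 18 to 20 higher and 6 to 7 lower members in Cct7 KD, 29 to 30 and 1 in Cct5 KD, 24 to 25 and 5 in the remainder, 23 to 25 larger and 3 smaller differences, and 0 between the controls; the lone library left in an arm is assumed to vary like the other group.

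Scaling by median of ratios turned the Cct7 KD change of Ppm1d to -0.092, Bax to -0.16, Eda2r to -0.18, Zmat3 to -0.053, Polk to -0.18 and Tigar to -0.15. In the remainder Bax turned to -0.14 and Phlda3 to -0.016 with the common total, and Bax to -0.049 without Cct5 KD Ctr replicate 1 and to -0.014 without remainder replicate 1. The call of Ppm1d in Cct7 KD was lost without Cct7 KD Ctr replicate 2 (limma adjusted p = 0.15), Cct7 KD replicate 1 (0.088) or Cct7 KD replicate 2 (0.13). That of Trp53inp1 was lost without Cct7 KD Ctr replicate 1 (0.054) or Cct7 KD replicate 2 (0.091), that of Gdf15 without Cct7 KD Ctr replicate 1 (0.071) or Cct7 KD replicate 1 (0.077), and that of Phlda3 in the remainder without Cct5 KD Ctr replicate 1 (0.13) or 2 (0.075), or remainder replicate 1 (0.096). Sign and call held under all alternatives run for 22 of 32 members in Cct7 KD and 27 of 32 in the remainder.

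With the replicate number as a block, 19 members were higher and 7 lower in Cct7 KD, 29 and 1 in Cct5 KD, 25 and 5 in the remainder, and 23 larger and 3 smaller in the difference; Ppm1d in Cct7 KD lost its call (limma adjusted p = 0.052). Same-numbered libraries of Cct7 KD and its control deviated together with r = -0.037 across genes. With 1 difference per group, this cannot tell whether they were paired in culture or handling. For the remainder that r was -0.12, and a crossed replicate block also gave 25 higher and 5 lower. FPKM tables of this kind limit precision for low genes such as Fas and Gdf15.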
